A study of Mus musculus with 43 samples.

Results

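The clustered histone genes are for the most part replication-dependent histone genes that lie together in a few clusters of the mouse genome. They carry the older symbols Hist1h, Hist2h, Hist3h and Hist4h. They were chosen by symbol alone, as every row whose gene name begins with one of these prefixes, which gave 70 of the 52636 genes in each of 2 expression tables. Of the 70, 53 reached 200 CP20M in 2 or more of the 24 organoid libraries and 28 did so in the 19 fibroblast libraries, where CP20M is the number of reads counted on a gene after the authors scaled each library to 20000000 counted reads. All 28 were among the 53, and the 17 genes that reached the level in neither table enter only the family sum. Just under the level in organoids lay Hist1h2ad and Hist2h2aa2, whose second highest libraries had 188 and 181 CP20M, and just over it Hist2h3c1 and Hist1h2ah with 227 and 251 CP20M. In fibroblasts Hist1h4n lay just under with 199 CP20M and Hist1h3d just over with 201 CP20M. By symbol the 70 are 6 linker H1, 20 H2A, 19 H2B, 12 H3 and 13 H4 genes. Of these 5, 12, 12, 11 and 13 were tested in organoids and 4, 3, 6, 6 and 9 in fibroblasts. Among the 70, Hist1h2aj, Hist1h2al and Hist3h2bb-ps are annotated as pseudogenes.

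Colonoids were grown from the colon of adult Vil-cre/ERT2 mice with wild-type Apc (lines M41, M40 and M1) and tumoroids from Vil-cre/ERT2 mice with both Apc alleles floxed (lines F11, M3 and M14). Mice of both genotypes had been injected with tamoxifen, so that all organoids carry the tamoxifen-inducible Cre, which the villin promoter expresses in intestinal epithelium, and the tumoroids differ in having Apc recombined. Organoids were kept for 6 days in vehicle (DMSO), 4 µM regorafenib, 8 µM regorafenib or 1 µM 5-FU, with 3 lines in each of the 8 groups. Fibroblasts were isolated from the colon of wild-type C57B/6 mice (lines M3, M3(2), M1(2) and M11) and kept for 7 days in vehicle, 4 µM regorafenib, 1 µM autogramin-2 or regorafenib and autogramin-2 together, with 4 lines in each of these groups and 3 lines at 10 µM regorafenib. Regorafenib inhibits several receptor tyrosine kinases and Raf kinases, 5-FU is an antimetabolite that blocks thymidylate synthase, and autogramin-2 inhibits autophagy through GramD1A. A line is the culture of 1 mouse, so the spread given here is that between lines, and the tumoroid and the fibroblast line named M3 are separate cultures. These are bulk RNA libraries, in which fewer cells in S phase and less histone mRNA in each such cell cannot be told apart.

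As a rule, histone mRNAs of this family are made while DNA is copied, when new nucleosomes are needed, though not every member need follow it. H2A, H2B, H3 and H4 form the core particle around which DNA is wrapped, and linker H1 binds the DNA between particles. Most of their mRNAs have no introns and no poly(A) tail. Those without a tail end in a stem-loop that is bound by SLBP, the protein that directs their processing, translation and decay. They are degraded when DNA synthesis stops. In the colon epithelium, cells in S phase are found in the lower part of the crypt.

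A histone stem-loop was found in the annotated transcripts of 46 of the 70 genes (65.7%), 37 of the 53 tested in organoids (69.8%) and 22 of the 28 tested in fibroblasts (78.6%), against 73 of the 55450 genes with a transcript (0.132%). A stem-loop past the annotated end of a transcript cannot be found in this way. Of the genes without one, Hist1h4k is annotated with only 312 bases and Hist1h2bl and Hist1h2bn with 381 each. These shares thus also depend on how far the annotation reaches. The stem-loops below are those of genes described further on, read on the strand of the gene from GENCODE M21 transcripts on GRCm38. Capitals mark the 2 arms of the stem and the loop between them.

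Hist1h1c, chr13:23739512-23739527, plus strand: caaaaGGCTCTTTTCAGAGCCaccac
Hist1h1e, chr13:23621782-23621797, minus strand: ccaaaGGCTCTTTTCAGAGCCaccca
Hist1h2bg, chr13:23571843-23571858, plus strand: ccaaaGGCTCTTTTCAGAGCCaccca
Hist1h3c, chr13:23745047-23745062, minus strand: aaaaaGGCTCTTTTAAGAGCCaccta
Hist1h4f, chr13:23551291-23551306, minus strand: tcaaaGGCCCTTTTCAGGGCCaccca
Hist1h4h, chr13:23531458-23531473, plus strand: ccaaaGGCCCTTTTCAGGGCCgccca

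The letters in capitals took 8 forms over the 46 genes. The form of Hist1h1c, Hist1h1e and Hist1h2bg was shared by 26 genes, that of Hist1h4f and Hist1h4h by 7 genes, all of them H4, and that of Hist1h3c by 6. Hist1h2bc, an H2B gene with 2 exons, had no stem-loop in its annotated transcript. In Hist1h1c the annotated transcript runs on for 840 bases past the stem-loop, which itself lies 25 bases after the stop codon.

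The 5 kinds of histone gene also differed in the letters before their start sites. RefSeq promoters on GRCm38.p6 were at hand for 61 of the 70 genes (62 promoters), and 4 motifs were searched on both strands of the 250 bases before the start. CCAAT, the motif bound by NF-Y, was present in 51 of the 62 promoters (82.3%) against 33.8% of all 32851 promoters, in 6 of 6 H1, 17 of 17 H2A and 17 of 17 H2B promoters and in 3 of 12 H4 promoters. The octamer ATTTGCAT, which Oct1 binds, was present in 7 of 17 H2A promoters and 7 of 17 H2B promoters (41.2% each) and in none of the H1, H3 or H4 promoters, against 1.6% of all promoters. AAACACA, known as the H1 box, was present in 5 of 6 H1 promoters (83.3%) against 6.25% of all, and TATAAA in 29 of 62 (46.8%) against 12.4%. Matches of different motifs can share a few letters at their ends and each motif was counted on its own, and a match describes the letters, not a site shown to be bound. The promoters below belong to the H1 gene and the H2B gene whose levels are described next, with capitals for the motifs found, and to an H4 gene in which none of the 4 was found.

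Hist1h1e, chr13:23622559-23622758, minus strand: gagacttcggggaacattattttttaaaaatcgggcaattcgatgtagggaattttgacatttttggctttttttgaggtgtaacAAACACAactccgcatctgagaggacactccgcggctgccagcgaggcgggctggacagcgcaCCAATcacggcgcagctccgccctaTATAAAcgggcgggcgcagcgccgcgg
Hist1h2bg, chr13:23571200-23571399, plus strand: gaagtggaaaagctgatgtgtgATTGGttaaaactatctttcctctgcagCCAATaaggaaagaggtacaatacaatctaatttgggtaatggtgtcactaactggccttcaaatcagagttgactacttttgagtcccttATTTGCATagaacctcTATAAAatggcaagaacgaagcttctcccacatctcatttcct
Hist1h4h, chr13:23530844-23531043, plus strand: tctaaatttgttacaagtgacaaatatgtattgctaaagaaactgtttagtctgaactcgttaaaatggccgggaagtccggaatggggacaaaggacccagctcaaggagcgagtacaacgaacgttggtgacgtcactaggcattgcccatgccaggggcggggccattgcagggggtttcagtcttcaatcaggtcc

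Most members share sequence with other annotated genes, which limits what a read count says of 1 gene. A stretch counted as shared when it occurred in any other annotated gene on either strand, also one annotated over the same place. Of the 100-base stretches of the 53 genes tested in organoids, the median gene shared 32.8% with another gene, 43 of the 53 shared more than 10%, and 4 shared none. Hist2h3b, Hist2h3c1 and Hist2h2bb were shared over 100% of their length, and each overlaps another annotated gene on the genome. The shares thus mix overlapping annotation with likeness between members. How the counting treated reads that fit several genes is not given in the sources used here. Values of single members with high sharing are therefore uncertain between the genes that share the stretch. Hist1h2be and Hist1h1e overlap each other on the genome. Hist1h2al is annotated as a processed pseudogene and lies at chr13:51202727-51203065, apart from the other Hist1h genes.

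The organoid libraries held 512600 to 22660959 counted reads (median 15697917) and the fibroblast libraries 7949960 to 12825907 (median 9039204), of which the family took 0.0656% to 0.717% and 0.0430% to 0.0932%. The library of colonoid line M41 at 4 µM regorafenib was the shallowest, with 1 read equal to 39.0 CP20M, and stands apart from the others. Summed epithelial markers ran from 114300 to 360000 CP20M in organoids, where fibroblast markers summed to 158 CP20M at most, and summed fibroblast markers from 111200 to 186400 CP20M in fibroblasts, where epithelial markers summed to 1644 CP20M at most. The fibroblast cultures also held RNA of 5 endothelial markers, with sums of 1136 to 9596 CP20M in vehicle. The 2 tables were scaled and sequenced separately and were tested separately.

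In vehicle the family sum differed more between tumoroid lines than between genotypes. It was 59155, 82407 and 39612 CP20M in colonoid lines M41, M40 and M1. In tumoroid lines F11, M3 and M14 it was 143491, 23926 and 29188 CP20M. Line F11 lay above every other line and tumoroid lines M3 and M14 below, so the genotypes overlapped (60390 ± 21420 CP20M in colonoids and 65540 ± 67560 in tumoroids, SD, n = 3 lines each). In limma, 0 of the 53 members were called between tumoroids and colonoids in vehicle, where a call needed an adjusted p under 0.05 and a change of at least 1.5-fold in either direction, and of all 11562 genes tested 1.09% were called lower and 0.969% higher in tumoroids. No member had an unadjusted p under 0.05 there (16.6% of all genes did), and edgeR and DESeq2 called 0. Without line F11 and the shallow library, a choice made after the values were seen, 8 members were called. The share of all genes called in that fit is not given here. The S phase list followed the same line: the sum of the DNA replication genes was 59704 CP20M in F11 against 10644 to 26354 CP20M in the other 5 lines.

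Per kilobase of exon, the highest levels over the organoid libraries were those of the pseudogene Hist1h2al, Hist2h2bb and Hist1h1c. Their mean values were 6159, 4732 and 4598 CP20M per kb. Hist1h2al was at 396 to 4496 CP20M in the organoid libraries and at 0 in every fibroblast library, a difference that was not tested. In fibroblasts Hist1h1c came first with 2001 CP20M per kb, followed by Hist1h2bc with 1284 and Hist1h4h with 981.9. Without division by length, Hist1h1c had the highest mean of the family in both tables, 7173 CP20M in organoids and 3121 CP20M in fibroblasts.

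Under regorafenib, the family sum as scaled by the authors was below vehicle in every colonoid line, and further below at 8 µM than at 4 µM. Line M41 went from 59155 CP20M in vehicle to 52676 at 4 µM and 13148 at 8 µM. Line M40 went from 82407 to 33370 and 15412 CP20M. Line M1 went from 39612 to 32757 and 24837 CP20M. All 3 colonoid lines were thus below their own vehicle at both doses as scaled by the authors. With TMM scaling, however, the shallow library of M41 at 4 µM lay above its vehicle (log2 ratio 0.30 in place of −0.17). Hist1h1c made up 49.0% of the sum in that library, against 16.7% in the vehicle library of M41. As scaled by the authors, the sums without Hist1h1c were 33710 to 72592 CP20M in vehicle and 25663 to 26885 at 4 µM. The family sums at 8 µM (17800 ± 6199 CP20M, SD, n = 3) did not overlap those in vehicle. The mean log2 ratio of regorafenib to vehicle was −1.02 ± 0.67 (SD, n = 3 lines), or 0.493-fold. It was −0.86 after TMM scaling and −1.46 without the shallow library, a choice made after the values were seen, which leaves line M41 with its 8 µM library alone. With 3 lines in a group no test was made on the sum.

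**Figure D1:**
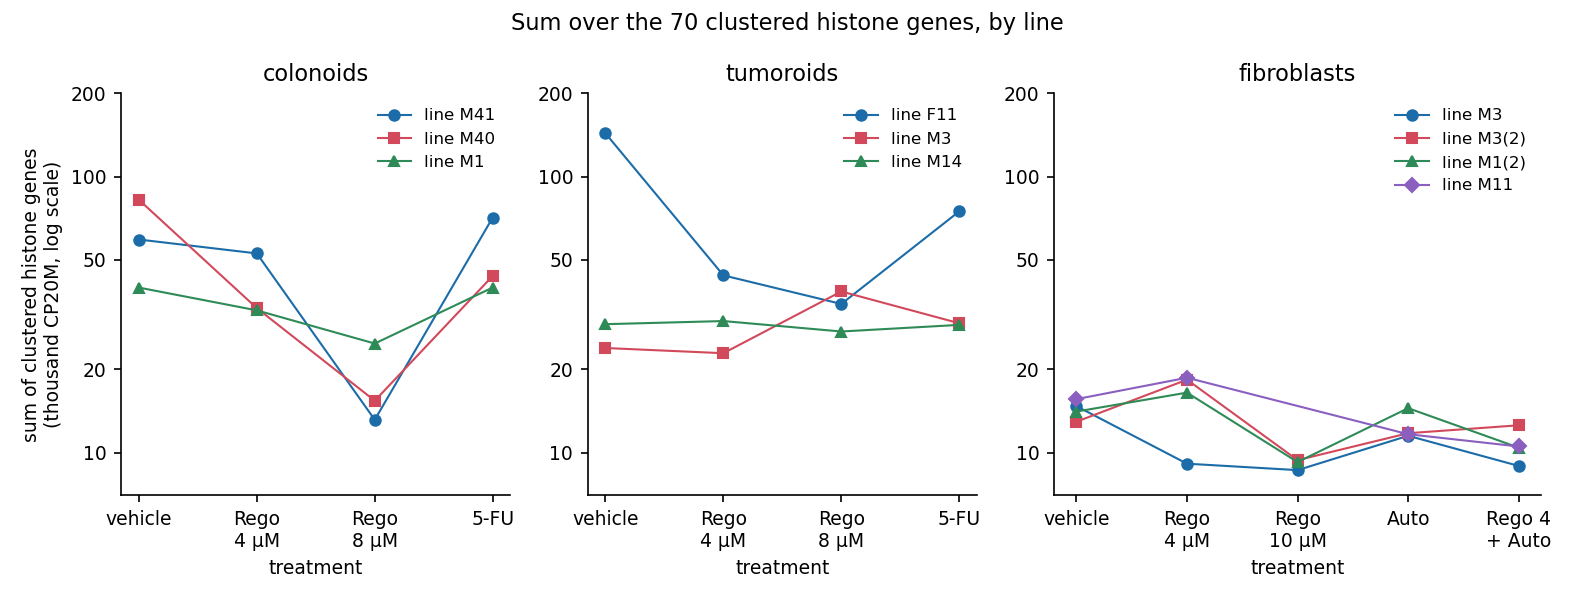
The sum of CP20M over the 70 clustered histone genes (in units of 1000 CP20M, log scale) is drawn for each line in each treatment, with 1 point per library joined within a line, for colonoids, tumoroids and fibroblasts. The 3 colonoid lines end at 13148 to 24837 CP20M at 8 µM regorafenib, tumoroid line F11 starts at 143491 CP20M in vehicle, and the fibroblast lines lie between 8638 and 18673 CP20M.

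In colonoids regorafenib lowered core histone genes of all 4 kinds and 1 linker H1 gene. Of the 53 members tested, limma called 23 lower and 0 higher in the mean of both doses against vehicle, where 8.9% of all genes were called lower and 5.67% higher. The median log2 fold change of the 53 was −1.67, and 53 of 53 lay below 0, against a median of −0.15 over all genes. H4 genes were called most often, 11 of 13, followed by 5 of 11 H3, 3 of 12 H2A, 3 of 12 H2B and 1 of 5 H1 genes. With the line as a block, 42 members were called lower (12.2% of all genes), 12 H4, 9 H3, 8 H2A, 11 H2B and 2 H1 genes. At the false discovery rate of 0.001 that the study used for regorafenib, 0 of the 53 passed in limma, while 40 had an unadjusted p under 0.05 (32.7% of all genes). At a false discovery rate of 0.05, edgeR called 26 and DESeq2 33, and the share of all genes that each called is not given here.

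The lines carried unequal parts of this count. It was 0 without line M41, 1 without line M40 and 17 without line M1, and it was 40 without tumoroid line F11 and 14 without tumoroid line M14, which enter only through the shared estimate of the spread. It was 22 without the shallow library. Leaving out lines moved the median between −2.12 and −1.34. TMM scaling moved the median of all genes from −0.15 to −0.04 and that of the members to −1.56, with 20 called.

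The largest changes among called members were in H3 and H2B genes. Hist2h3b (H3, chr3:96268654-96269141) was at 374, 662 and 251 CP20M in vehicle, at 40, 139 and 145 at 4 µM and at 34, 35 and 92 at 8 µM in M41, M40 and M1. Each treated library lay below every vehicle library, and the log2 fold change was −2.22 (SE 0.60, limma adjusted p = 0.0156). Hist1h2bg (H2B, chr13:23571396-23572013), whose stem-loop and promoter are given above, was at 771, 1361 and 524 CP20M in vehicle, 79, 449 and 422 at 4 µM and 58, 140 and 170 at 8 µM. Again no treated library reached a vehicle library (−2.14, SE 0.63, adjusted p = 0.0241). Hist1h2be (H2B; −2.10, SE 0.69, adjusted p = 0.0397), Hist1h3h (H3; −2.10, SE 0.57, adjusted p = 0.0157) and Hist1h3i (H3; −2.06, SE 0.59, adjusted p = 0.0201) complete the 5 largest. Without the shallow library Hist1h2be no longer passed (−1.58, adjusted p = 0.0519). Hist2h3b, Hist1h3h and Hist1h3i share 100%, 92.0% and 68.6% of their stretches with other genes, and Hist1h2bg 44.9%.

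Among the abundant members, Hist2h2bb (H2B) was at 3005, 3827 and 1963 CP20M in vehicle and 555, 494 and 979 at 8 µM in M41, M40 and M1, with 742, 930 and 1029 at 4 µM (−1.87, SE 0.49, adjusted p = 0.0122). Hist1h4h (H4, chr13:23531050-23531519) was at 2210, 2506 and 1340 CP20M in vehicle, 937, 1167 and 1298 at 4 µM and 409, 508 and 1158 at 8 µM. Its treated libraries lay below the vehicle libraries, in line M1 by a small margin (−1.20, SE 0.37, adjusted p = 0.0307). Hist1h4d (H4), which shares no stretch with another gene, fell as well (−1.17, adjusted p = 0.0426), as did Hist1h4a (H4; −1.40, adjusted p = 0.0298), Hist1h3e (H3; −1.41, adjusted p = 0.0300) and Hist1h2al (−1.27, adjusted p = 0.0467). Hist1h2bc (H2B) did not pass (−1.0, adjusted p = 0.196).

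The linker H1 genes did not move alike. Hist1h1e (H1.4, chr13:23620629-23622558) was at 5381, 6209 and 3238 CP20M in vehicle, 1249, 2535 and 2268 at 4 µM and 1186, 1444 and 1551 at 8 µM in M41, M40 and M1. Every treated library lay below every vehicle library (−1.53, SE 0.36, adjusted p = 0.00696). Hist1h1d (H1.3, chr13:23553262-23560686) fell only with the line as a block (−1.27, SE 0.50, adjusted p = 0.0810, and 0.0157 with the block). Hist1h1b (H1.5) and Hist1h1a (H1.1) had log2 fold changes of −1.76 and −1.45 and adjusted p of 0.154 and 0.223. Hist1h1c (H1.2, chr13:23738808-23740367), the most abundant member, was at 9857, 9815 and 5902 CP20M in vehicle, 25791, 7471 and 7094 at 4 µM and 4460, 4379 and 6304 at 8 µM, and its log2 fold change was −0.16 (SE 0.35, adjusted p = 0.789). The value of 25791 CP20M is that of the shallow library, without which the change was −0.46 (SE 0.26, adjusted p = 0.198). The groups of Hist1h1c overlapped, and its share of the family sum was 11.9% to 16.7% in vehicle and 25.4% to 33.9% at 8 µM.

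How a member passed the filter and how it was shared was also set beside the calls. All 53 passed on the vehicle and 5-FU libraries alone and 44 on the regorafenib libraries alone, of which 21 of the 44 and 2 of the other 9 were called. Of the 18 members that share under 20% of their stretches 9 were called, and of the other 35, 14. Of the 37 members with a stem-loop in the annotation 16 were called, and of the 16 without, which may lack only the annotation, 7. Of the members named Hist1h and Hist2h, on chromosomes 13 and 3, 19 of 46 and 3 of 5 were called. Of the 53 members, 27 had every regorafenib library below every vehicle library (12.2% of all genes), and 46 had so at 8 µM alone (23.2% of all genes).

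In tumoroids no member was called, and the lines went apart. The family sum of line F11 went from 143491 CP20M in vehicle to 43867 at 4 µM and 34550 at 8 µM. Line M3 went from 23926 to 22911 and 38351 CP20M. Line M14 stood at 29188, 29959 and 27460 CP20M. F11 lay far below its vehicle at both doses, line M14 lay near its vehicle, and line M3 was higher at 8 µM than in vehicle. The mean log2 ratio of regorafenib to vehicle was −0.51 ± 1.19 (SD, n = 3 lines). In limma 0 of 53 members were called (3.27% of all genes were called lower and 4.51% higher), with a median of −0.47 against −0.05 over all genes, and the smallest adjusted p was 0.152. An unadjusted p under 0.05 was reached by 1 member (23.5% of all genes), edgeR called 0, DESeq2 called 2, and the line as a block gave 0 (5.35% of all genes lower). The median turned to 0.24 without line F11.

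Within lines the members were counted against vehicle. In F11, 53 of 53 were below vehicle at 4 µM and 53 of 53 at 8 µM, with median log2 changes of −1.89 and −2.24. In tumoroid line M3, 24 were below vehicle at 4 µM and 1 at 8 µM, with medians of 0.12 and 0.89. In M14 the counts were 18 and 23, with medians of 0.18 and 0.08. The colonoid lines at 8 µM had 53, 53 and 50 members below vehicle, with medians of −2.37 in M41, −2.93 in M40 and −0.90 in M1. At 4 µM these medians were −1.52, −1.61 and −0.42, and in the shallow library of M41 69.1% of all genes lay below vehicle too, with a median of −0.54.

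**Figure D2:**
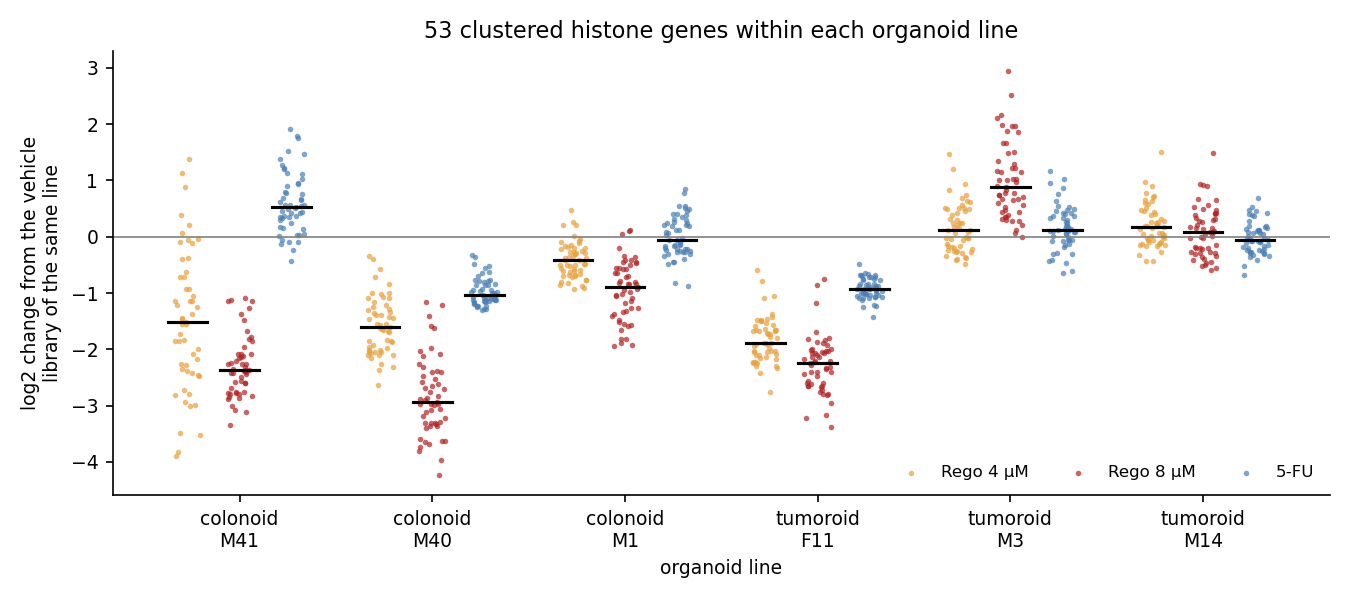
Each point is the log2 change of 1 of the 53 tested members from the vehicle library of the same line, for 4 µM regorafenib, 8 µM regorafenib and 5-FU, and black bars are medians. At 8 µM the points of M41, M40 and F11 lie below 0 with medians of −2.37, −2.93 and −2.24, while those of tumoroid line M3 have a median of 0.89.

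The levels of single members followed the lines. Hist1h1e was at 9334, 2213 and 2659 CP20M in vehicle in F11, M3 and M14, at 2806, 1707 and 1971 at 4 µM and at 2435, 2821 and 2024 at 8 µM (−0.75, SE 0.36, limma adjusted p = 0.221). Hist2h2bb was at 6753, 1114 and 1204 CP20M in vehicle, 1509, 862 and 1188 at 4 µM and 1521, 1913 and 1361 at 8 µM (−0.62, SE 0.49, adjusted p = 0.499). Hist1h4h was at 3705, 969 and 1051 CP20M in vehicle, 1304, 1055 and 1088 at 4 µM and 1044, 1196 and 908 at 8 µM (−0.51, SE 0.37, adjusted p = 0.458). For all 3 genes the treated libraries of F11 lay near those of the other lines. Hist1h1c was at −0.31 on the log2 scale (SE 0.35, adjusted p = 0.661).

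The difference between the genotypes in the response was tested directly. Its median over the 53 members was 1.25, with 52 above 0, that is, a smaller fall in tumoroids. No member passed in limma, edgeR or DESeq2, none had an unadjusted p under 0.05 (3.55% of all genes did), the smallest adjusted p was 0.997, and 0.0% of all genes were called. A fall in colonoids that differs from that in tumoroids is therefore not shown for any member. The median of the difference ran from 0.66 to 2.04 with single lines left out.

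Over both genotypes together, the mean of the 4 regorafenib groups was below that of the 2 vehicle groups for 24 of the 53 members in limma and above for 0 (9.2% of all genes were called lower and 7.65% higher, median −1.04 against −0.11). With the line as a block 39 were called (10.7% of all genes), and at the study's false discovery rate of 0.001 none, while 33 had an unadjusted p under 0.05 (40.9% of all genes). The 24 were 11 of 13 H4, 6 of 11 H3, 3 of 12 H2A, 3 of 12 H2B and 1 of 5 H1 genes. The count was 12 without M41, 5 without M40, 12 without F11 and 15 without M14. Hist2h3b (−1.51, SE 0.43, adjusted p = 0.0119), Hist1h2bg (−1.37, SE 0.45, adjusted p = 0.0265) and Hist1h3i (−1.36, SE 0.42, adjusted p = 0.0189) changed most, and Hist1h1e had an adjusted p of 0.00259 (−1.14, SE 0.26). The comparison takes its libraries from the same vehicle and regorafenib groups as those within each genotype. Between the doses of 8 and 4 µM limma called 0 members (median −0.40 against 0.11, 0.415% of all genes called lower and 0.432% higher). There 3 members had an unadjusted p under 0.05 (17.4% of all genes), edgeR and DESeq2 called 0, and the line as a block 0 (1.51% of all genes lower).

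5-FU left no member called in either genotype. In colonoids the family sum was 71045, 43657 and 39637 CP20M under 5-FU in M41, M40 and M1, and in tumoroids 74843, 29411 and 29018 CP20M in F11, M3 and M14. Lines M40 and F11 were below vehicle, lines M41 and M3 were above it (1.20 and 1.23-fold), and M1 and M14 were near it, so that the mean log2 ratio was −0.22 ± 0.62 in colonoids and −0.22 ± 0.64 in tumoroids (SD, n = 3 lines each). In limma 0 of 53 were called in colonoids and 0 of 53 in tumoroids (0.0% and 0.0605% of all genes were called lower, and 0.0432% and 0.121% higher), with medians of −0.15 and −0.30. No member had an unadjusted p under 0.05 in either (787 and 1167 of the 11562 genes did), and edgeR, DESeq2 and limma with the line as a block called 0 (with the block 0.104% and 0.839% of all genes were lower). Within lines, 53 of 53 members lay below vehicle in M40 and in F11, with medians of −1.04 and −0.93, and 6 of 53 in M41, with a median of 0.52. For the difference between the genotypes limma, edgeR and DESeq2 called 0 members, with a median of −0.14 and none at an unadjusted p under 0.05 (0.752% of all genes). The lists of DNA replication and mitosis genes had medians of 0.41 and 0.63 in colonoids and 0.25 and 0.60 in tumoroids under 5-FU, with 0 called.

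In fibroblasts most members fell at 10 µM regorafenib, and none was called at 4 µM. The family sum in vehicle was 14733, 12938, 14081 and 15620 CP20M in lines M3, M3(2), M1(2) and M11. At 4 µM it was 9115, 18371, 16490 and 18673 CP20M, below vehicle in M3 and above in the other 3 lines. Summed endothelial markers (5 genes) were above vehicle at 4 µM in all 4 lines, going from 1136 to 1838 CP20M in M3, 9596 to 25819 in M3(2), 1896 to 5995 in M1(2) and 2546 to 7390 in M11. Their median log2 fold change was 1.14, with 0 of 5 called in limma and 5 of 5 with the line as a block. At 10 µM the family sum was 8638, 9389 and 9240 CP20M in the 3 lines treated, all below every vehicle library, and the endothelial sums were 1531, 6325 and 1773 CP20M. The part of endothelial cells in the family's level was not tested. The mean log2 ratio to vehicle was 0.07 ± 0.53 at 4 µM (SD, n = 4 lines) and −0.61 ± 0.15 at 10 µM (n = 3).

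At 10 µM limma called 20 of the 28 members lower and 0 higher (4.09% of all 11032 genes tested were called lower and 3.25% higher, median −1.17 against −0.04 over all genes). They were 6 of 6 H3, 5 of 6 H2B, 5 of 9 H4, 2 of 3 H2A and 2 of 4 H1 genes, and 22 with the line as a block (7.71% of all genes). An unadjusted p under 0.05 was reached by 23 members (27.5% of all genes). The count was 6 without line M3, 10 without M3(2), 3 without M1(2) and 19 without M11, which has no library at 10 µM. All 28 members passed the filter on the other libraries alone and 8 on the 10 µM libraries alone, of which 3 of the 8 and 17 of the other 20 were called. Of the 11 members that share under 20% of their stretches 8 were called, and of the other 17, 12.

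Hist2h2bb (H2B) was at 314, 261, 218 and 365 CP20M in vehicle in M3, M3(2), M1(2) and M11, and at 23, 96 and 61 in the first 3 of these at 10 µM (−2.04, SE 0.50, limma adjusted p = 0.0115). Hist1h3c (H3) was at 333, 314, 350 and 318 CP20M in vehicle and at 56, 91 and 63 at 10 µM (−1.97, SE 0.46, adjusted p = 0.00926). Hist1h1b (H1.5) was at 333, 281, 354 and 281 CP20M in vehicle and at 75, 75 and 67 at 10 µM (−1.84, SE 0.41, adjusted p = 0.00656). In all 3 genes the groups lay far apart and the vehicle libraries were close to each other. Hist1h4f (H4) changed by −1.68 (SE 0.48, adjusted p = 0.0273) and Hist1h4b (H4) by −1.65 (SE 0.31, adjusted p = 0.00245). At 4 µM Hist1h1b had 95, 399, 298 and 385 CP20M, Hist1h3c 94, 450, 321 and 425 CP20M and Hist2h2bb 66, 374, 251 and 387 CP20M, with line M3 low and the other lines near vehicle. The low value of M3 held for 27 of the 28 members, with a median log2 change of −1.11 in that line at 4 µM and of 0.52, 0.15 and 0.36 in M3(2), M1(2) and M11.

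At 4 µM limma called 0 of 28 members (0.354% of all genes called lower and 0.671% higher, median 0.01), with 1 at an unadjusted p under 0.05 (13.6% of all genes), 0 by edgeR and DESeq2 and 0 with the line as a block (2.64% of all genes lower). Between 10 and 4 µM, where the endothelial markers had a median of −1.30 (0 of 5 called lower, 5 of 5 with the line as a block), limma called 0 as well (0.0544% of all genes lower and 0.0906% higher), with a median of −1.10, a smallest adjusted p of 0.0710 and 25 members at an unadjusted p under 0.05 (12.2% of all genes). With the line as a block 22 were called lower (5.02% of all genes), DESeq2 called 22 and edgeR 0. The share of all genes that DESeq2 called is not given here. Without line M3 limma called 3. The 10 µM group shares its vehicle and 4 µM libraries with the other comparisons in fibroblasts.

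Not every member was lower. Hist1h1c was at 2099, 1957, 2876 and 3609 CP20M in vehicle, 2803, 3372, 4448 and 4522 at 4 µM and 3292, 2941 and 3681 at 10 µM, above its own vehicle in every line at both doses. Its log2 fold change was 0.54 (SE 0.24, limma adjusted p = 0.340) at 4 µM and 0.36 (SE 0.26, adjusted p = 0.415) at 10 µM. With the line as a block the adjusted p was 0.000431 and 0.000661, and both changes stayed under the fold threshold. Hist1h2bc was at 1533, 1376, 1548 and 1581 CP20M in vehicle and 1345, 1361 and 1374 at 10 µM (−0.15, adjusted p = 0.470). Hist3h2a (−0.27), Hist1h4h (−0.56, adjusted p = 0.134) and Hist1h1e (−0.59, adjusted p = 0.251) did not pass. Hist1h1c took 14.3% to 23.1% of the family sum in vehicle and 31.3% to 39.8% at 10 µM.

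**Figure D3:**
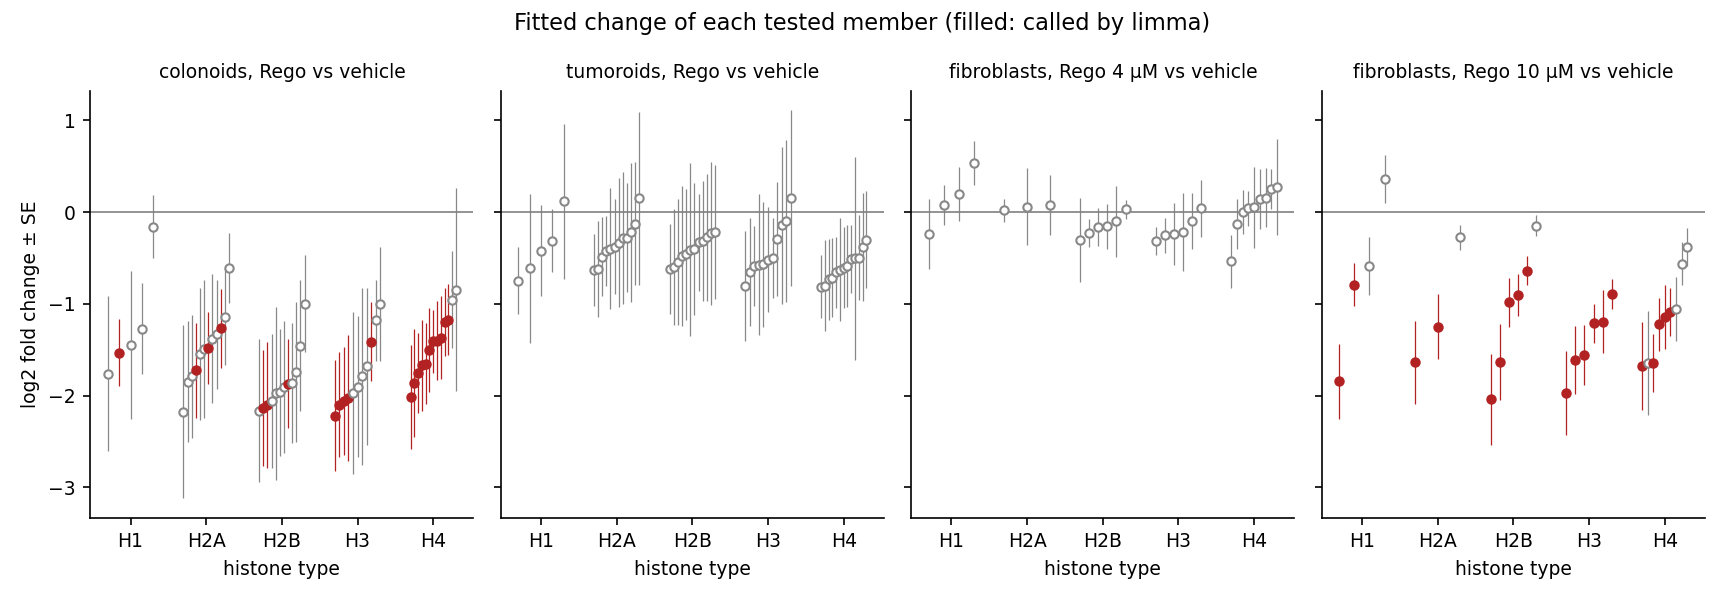
Fitted log2 fold change with its SE for each tested member, ordered within the 5 kinds of histone, in 4 comparisons with vehicle, where filled points were called by limma. Colonoids have 23 of 53 called and fibroblasts at 10 µM 20 of 28, and the highest H1 point in both is Hist1h1c.

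**Figure D4:**
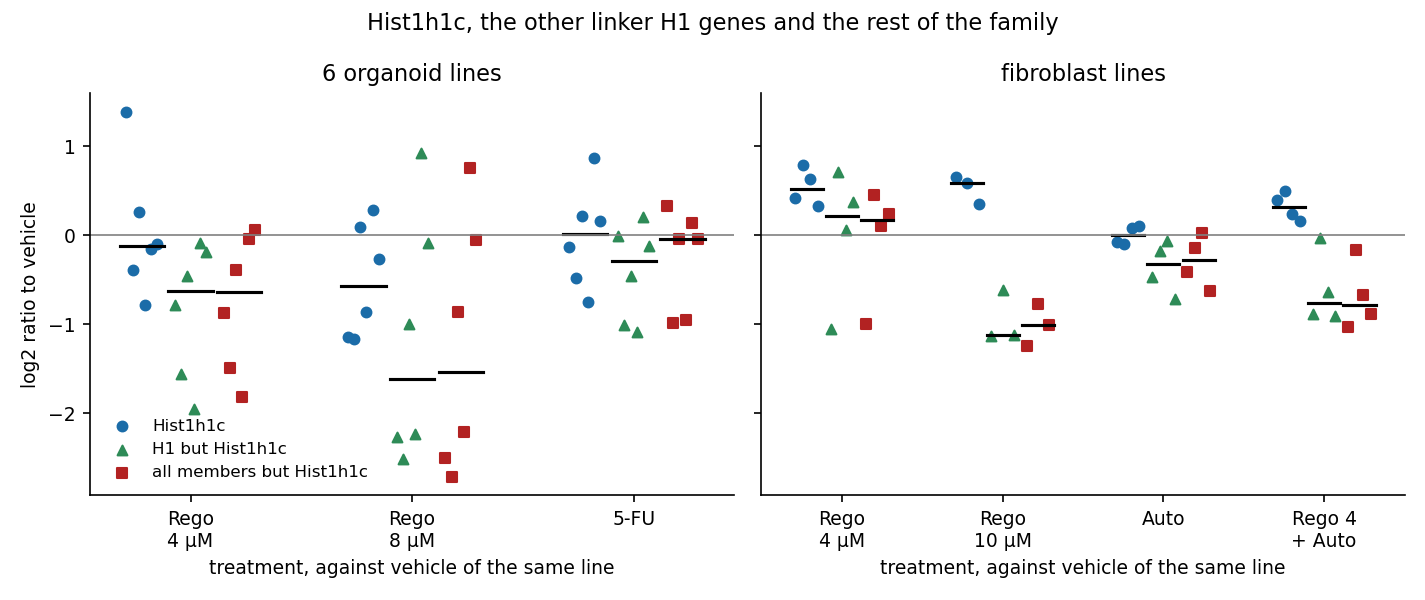
Log2 ratio to the vehicle library of the same line for Hist1h1c, for the summed other H1 genes and for the sum of all members but Hist1h1c, with 1 point per line and bars at the medians. At 10 µM regorafenib in fibroblasts the 3 points of Hist1h1c lie above 0 and those of both sums below 0.

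Autogramin-2 alone left no member called (0 of 28 in limma, 0.0% of all genes called lower, median −0.29, 1 at an unadjusted p under 0.05 against 1.09% of all genes, 0 by edgeR and DESeq2). The family sum was 11505, 11754, 14483 and 11655 CP20M in M3, M3(2), M1(2) and M11, below vehicle in 3 of 4 lines (mean log2 ratio −0.22 ± 0.21, SD). Added to 4 µM regorafenib, it gave 8946, 12557, 10419 and 10523 CP20M, below 4 µM regorafenib alone in 4 of 4 lines (−0.52 ± 0.35), by a small margin in M3. The endothelial sums with both drugs were 2167, 16663, 2006 and 2006 CP20M, above regorafenib alone in M3 and below it in the other 3 lines (median −1.02 over the 5 genes, 0 called, 2 lower with the line as a block), and their part was not tested. Again limma called 0 of 28 (0.00906% of all genes), with a median of −0.58, 20 at an unadjusted p under 0.05 (5.64% of all genes), 1 by DESeq2 and 0 by edgeR. With the line as a block 2 were called (1.41% of all genes). These were Hist1h2bj, at 156, 253, 219 and 206 CP20M with regorafenib alone and 114, 147, 119 and 69 with both, and Hist1h3d, at 126, 200, 126 and 180 and then 81, 109, 73 and 59 CP20M. In each line both genes were lower with both drugs. In M3(2), M1(2) and M11, 27, 28 and 28 of the 28 members were below regorafenib alone, and in M3, 13.

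Genes that work with the family were taken as lists, and their counts in colonoids can be read against the 8.9% of all genes called lower there and those in fibroblasts at 10 µM against 4.09%. Of 14 genes of histone mRNA processing, 1 was called lower by regorafenib in colonoids, Slbp (−1.06, SE 0.35, limma adjusted p = 0.0407). Slbp was at 447, 835 and 643 CP20M in vehicle in M41, M40 and M1, 118, 410 and 459 at 4 µM and 287, 252 and 334 at 8 µM. In tumoroids it had −0.65 (adjusted p = 0.278) and in fibroblasts at 10 µM −0.56 (SE 0.13, adjusted p = 0.010), under the fold threshold, and with the line as a block it was called there. Npat, the coactivator of these genes in S phase, had 0.13 in colonoids (adjusted p = 0.806), 0.12 in tumoroids and −0.04 in fibroblasts at 10 µM. Eri1, a nuclease that trims histone mRNA ends, was the 1 of 14 called in fibroblasts (−0.67, adjusted p = 0.00805), and 3 of 14 were called with the line as a block.

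Of 20 genes of histone supply and chaperones, 1 was called lower in colonoids, Tonsl, a chaperone at replication forks (−0.72, adjusted p = 0.00781), and the fit blocked by line called 3, which were Tonsl, Nap1l1 (−0.92) and Nasp (−1.06). Over both genotypes 2 of 20 were called, Nap1l1 (−0.83, adjusted p = 0.00875) and Nasp (−0.79, adjusted p = 0.0320). In fibroblasts at 10 µM 4 of 18 were called lower, the chaperones Nap1l1 (−0.93) and Nasp (−0.82), Chaf1a (−0.60), a subunit of CAF-1, and Rbbp7 (−0.59). Replication-independent histones, whose mRNAs have poly(A) tails, held 1 called gene of 9 in colonoids, H3f3b for H3.3 (−0.75, adjusted p = 0.000434), and 1 of 10 in fibroblasts, Cenpa for the centromeric H3 (−1.94, adjusted p = 0.00346). These counts were 2 of 9 and 3 of 10 when blocked by line. H3f3a, also for H3.3, had −1.14 in colonoids (adjusted p = 0.0632), H2afx −0.88 (adjusted p = 0.234) and H1f0 −0.51 (adjusted p = 0.00972, under the fold threshold). In fibroblasts at 10 µM these 3 had −0.25, −0.55 and 0.24, and H3f3b −0.13. In tumoroids H3f3b had −0.46, H3f3a −0.23, H2afx −0.43 and H1f0 −0.38, and none of the 4 was called.

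Other RNAs without a poly(A) tail were read as well, since the library kit decides how such RNAs are caught. Of 8 small RNAs tested in colonoids 3 were called lower under regorafenib, Terc (−2.14, adjusted p = 0.00972), Scarna10 (−1.91, adjusted p = 0.00778) and Scarna6 (−1.70, adjusted p = 0.0452). Their list had a median of −0.74, or −1.09 without the shallow library. Its sum at 4 µM was 321584 CP20M in that library against 22216 and 28464 CP20M in colonoid lines M40 and M1. In fibroblasts at 10 µM 0 of 5 were called. Their part in the change of the histone genes was not tested. Summed leukocyte markers in fibroblast lines M3, M3(2) and M1(2) were 2497, 1067 and 1763 CP20M in vehicle and 611, 592 and 610 at 10 µM, and 6024 CP20M in vehicle in M11, which has no 10 µM library. The part of these cells in the family's level was not tested either. In organoids the summed leukocyte markers were 427 to 573 CP20M in vehicle and 601 to 3251 at 8 µM. Of the 2 leukocyte markers tested there, 1 was called higher under regorafenib over both genotypes, Cd68 (7.65% of all genes were called higher). Cd68 was also called higher at 8 against 4 µM (0.432% of all genes). Ptprc, of the same list, was at 0 to 7 CP20M. The part of leukocytes in the family's level in organoids was not tested.

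DNA replication genes were called lower in fibroblasts and not in colonoids, and the difference between the 2 tables was not tested. At 10 µM in fibroblasts 15 of 23 replication genes were called lower (median −0.87), among them Mcm4 (−1.16, adjusted p = 0.000263) and Mcm6 (−1.76, adjusted p = 0.000268) of the replicative helicase, Mcm5 (−1.77, adjusted p = 0.00208) of the same complex and Pole (−1.74, adjusted p = 0.00208), a DNA polymerase subunit, and 14 of 14 mitosis genes (median −1.78). In colonoids 0 of 29 replication genes (median −0.43, 1 lower with the line as a block) and 0 of 16 mitosis genes (median −0.92) were called under regorafenib. Of 11 epithelial markers 4 were called lower in colonoids, the transcription factors Cdx1 (−4.27, adjusted p = 0.000622) and Cdx2 (−2.12, adjusted p = 0.00351), the galectin Lgals4 (−2.30, adjusted p = 0.00459) and the tight-junction protein Cldn7 (−0.77, adjusted p = 0.00111), and the part of epithelial state in the family's level was not tested. In tumoroids the replication and mitosis lists had medians of 0.07 and 0.64, with 0 called and, with the line as a block, 1 replication gene higher, E2f1. Line F11 had the highest sums of replication genes in vehicle, 59704 CP20M, and went to 28908 and 25266 CP20M, while tumoroid lines M3 and M14 went from 13336 and 12169 CP20M to 23643 and 20839 at 8 µM.

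The family sum was then divided by the summed replication genes of the same library, a measure chosen after the values had been seen and given without a test. The ratio was 5.56, 3.13 and 2.72 in colonoid lines M41, M40 and M1 in vehicle and 1.22, 1.3 and 1.80 at 8 µM. In tumoroid lines F11, M3 and M14 it was 2.40, 1.79 and 2.40 in vehicle and 1.37, 1.62 and 1.32 at 8 µM. It was below vehicle in 6 of 6 organoid lines at 4 µM (median log2 change −0.41, range −0.66 to −0.06) and in 6 of 6 at 8 µM (median −0.84, range −2.19 to −0.15), also in M3 and M14, whose family sums at 8 µM were 38351 and 27460 CP20M. Under 5-FU it was below vehicle in 5 of 6 lines, with a median of −0.40. In fibroblasts it was below vehicle in 0 of 4 lines at 4 µM (median 0.27) and 2 of 3 at 10 µM (median −0.03, range −0.09 to 0.12). The family sum includes Hist1h1c in both organoids and fibroblasts, and in fibroblasts this gene was above vehicle in every line at both doses. Without Hist1h1c the mean family sum of fibroblasts was 11710 CP20M in vehicle and 5784 at 10 µM, against 14340 and 9089 with it. The summed replication genes of fibroblasts were 14140 to 18940 CP20M in vehicle and 10520 to 11690 at 10 µM. The ratio was not taken without Hist1h1c. Its small change in fibroblasts at 10 µM is that of sums that include this gene.

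**Figure D5:**
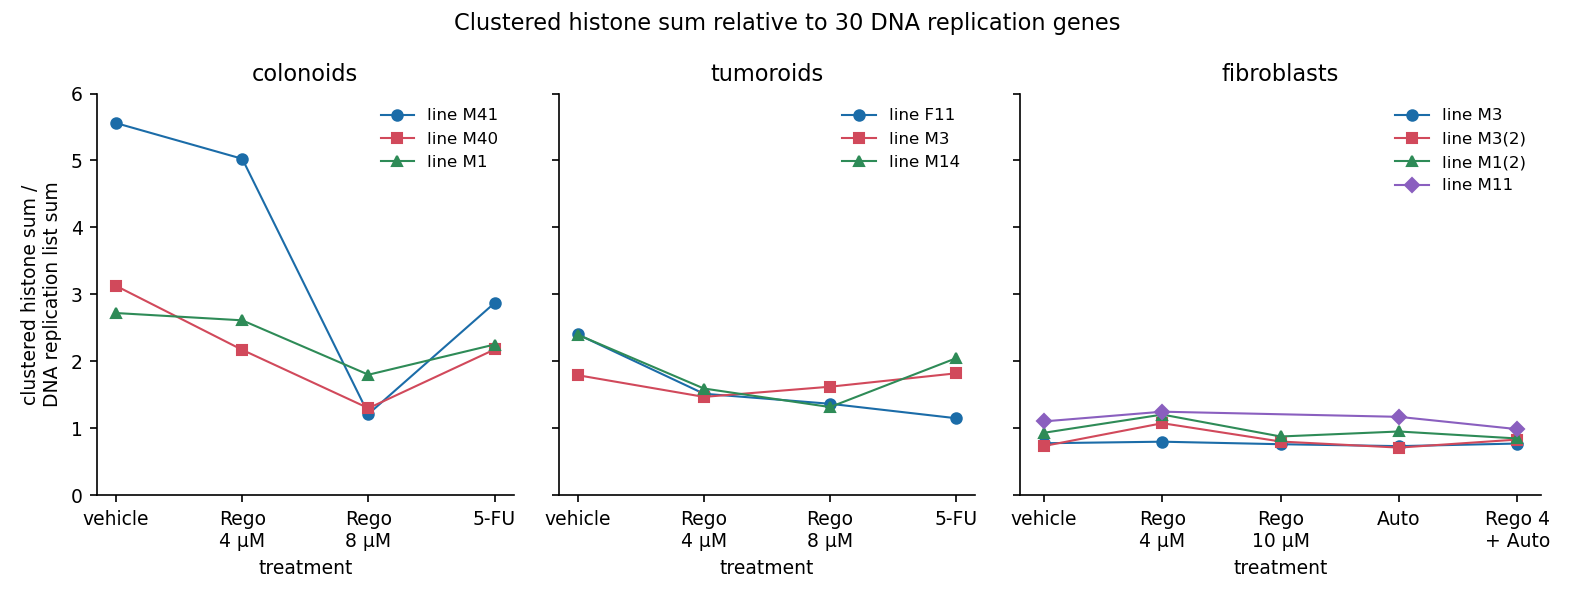
The ratio of the clustered histone sum to the sum of 30 DNA replication genes is drawn for each library, with 1 line of points per culture line. In organoids the 6 lines start between 1.79 and 5.56 in vehicle and lie between 1.22 and 1.80 at 8 µM regorafenib. The histone sums include Hist1h1c in every panel, and with this gene included the fibroblast ratios hardly move at 10 µM.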

How the data were processed

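RNA sequencing libraries of 24 organoid and 19 fibroblast cultures were used. Per the labels, total RNA was made into libraries with the Ovation SoLo kit and read in pairs, while the study's methods name a directional NEBNext kit for the organoids, and which of these applies was not settled here. How each kit catches mRNAs without a poly(A) tail bears on the levels of the clustered histone genes. The authors trimmed the reads with Trimmomatic 0.36, aligned them to GRCm38 with STAR 2.5.3a, counted them per gene with HTSeq 0.9.1, scaled each library to 20000000 and rounded every value up, and deposited this signal, CP20M, which is not divided by gene length. The strand setting of the counting and its treatment of reads that fit several genes are not given in the sources used here. Whole read counts were recovered from the step between the deposited values, and 99.13% to 100.0% of the values of an organoid library and 99.49% to 99.93% of those of a fibroblast library came out as whole reads after undoing the rounding.

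Samples were grouped by the treatment, genotype and line in their labels. Tumoroid cultures with 5-FU (3 libraries) are titled as colonoids, so their genotype label and library name were followed. Values were analysed as log2(CP20M + 20), so a fold change is on that scale and understates the change of low genes. Genes with at least 200 CP20M in at least 2 libraries of a table were tested in R 4.3.3 with the moderated linear models of limma 3.58.1 (with a mean-variance trend), 1 coefficient per group and all libraries of a table in 1 fit, with Benjamini-Hochberg adjustment over all genes tested. A call needed an adjusted p under 0.05 and a change of at least 1.5-fold. The study's own threshold for regorafenib, a false discovery rate of 0.001, was run as an alternative. The fit was tested on simulated data.

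Lines recur across treatments and each line is 1 mouse, so same-numbered libraries are paired. The deviations from the group means of 2 libraries of a line were correlated over genes. The mean correlation was 0.503 in organoids (0.0121 to 0.885, 36 pairs) and 0.719 in fibroblasts (0.339 to 0.946, 36 pairs). For libraries of different lines and treatments it was −0.249 and −0.229. Deviations within a group sum to 0, which pulls these last values below 0, so they are no separate evidence of pairing. Values blocked by line are printed where they alter a call or move a count by over 1.5 times. Libraries of 1 group differed beyond counting error in every pair (chi-square per gene of 8.86 at least).

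The members, the gene lists and the alternatives were chosen with earlier results of these data known. The genes named are the 10 members with the highest mean in each table, every H1 member tested, the 5 called members with the largest change in each comparison and, in the lists of histone mRNA processing, histone supply, replication-independent histones and DNA replication, up to 4 called genes with the smallest adjusted p plus Slbp, Npat, H2afx, H3f3a, H3f3b and H1f0. Other genes were named after their values were seen. Alternatives were pseudocounts of 1 and 100 CP20M, no filter or one at 20 CP20M, TMM scaling, edgeR 4.0.16 and DESeq2 1.42.0 on the recovered counts, the line as a block, leaving out each line, the shallow library or both it and line F11, and the 18 vehicle and regorafenib libraries alone. Sequence sharing was measured as the share of 100-base windows of a gene's transcripts found in another gene of GENCODE M21. Both strands were searched, and genes overlapping on the genome were not set aside.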

Additional observations from a re-analysis of the deposited data

Results flagged for a closer look

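In groups of 4 fibroblast lines, the highest or lowest library was set against the others, and it was flagged when its gap to the nearest one, as a part of the range of the group, passed Dixon's 95% limit. Of 88 such groups 7 were flagged, and about 1 in 20 is flagged by chance. With autogramin-2, line M1(2) was above the others in the family sum (14483 CP20M against 11505 to 11754), and line M11 was below them in the H3 sum (1058 against 1710 to 1840), in Hist1h3c (121 against 288 to 299) and in Hist1h2be (290 against 359 to 372). At 4 µM regorafenib line M3 was lowest in the H2B sum (2365 CP20M against 3622 to 3730). In vehicle line M1(2) was lowest in Hist1h2be (363 against 426 to 436), and with regorafenib and autogramin-2 line M3(2) was highest in Hist1h4f (251 against 81 to 109). Groups of 3 libraries, which all organoid groups are, were not looked at in this way. No member had all lines of one genotype move one way and all lines of the other the opposite way, over 106 such checks. In colonoid line M40 and in tumoroid line F11, 53 of 53 members lay below vehicle under regorafenib at 4 µM, at 8 µM and under 5-FU. With a line of each genotype always down, these checks had no way to find such a member, and no conclusion is drawn from them.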

How the results depend on the processing

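Counts of called members moved more with the lines and the test than with the scaling. For edgeR, DESeq2 and the fits without a line or library, the share of all genes called is not given beside them. For regorafenib in all organoids (24 members called) the count was 15 with no filter, 43 with edgeR, 48 with DESeq2, 39 with the line as a replicate block, 37 with the block and without the shallow library and 0 at the study's thresholds, and 5 to 24 with single lines left out. In colonoids (23) it was 13 with no filter, 42 with the block, 41 with the block and without the shallow library, 44 without line F11 and the shallow library, 0 at the study's thresholds and 0 to 40 with single lines left out. In tumoroids (0) DESeq2 gave 2 and the block without the shallow library 1. For 8 against 4 µM (0) the filter at 20 CP20M gave 1, as did the block without the shallow library, and for tumoroids against colonoids in vehicle (0) 8 members were called without F11 and the shallow library. In fibroblasts at 10 µM (20) the count was 33 with no filter and 39 with the filter at 20 CP20M, which test more members, and 3 to 19 with single lines left out. For 10 against 4 µM (0) it was 1 with no filter, 1 with the filter at 20 CP20M, 22 with DESeq2, 22 with the block and 0 to 3 with single lines left out, and for the combination (0) 1 with DESeq2 and 2 with the block. In the other comparisons single lines left out gave 0 to 0. The block moved no other count of members by over 1.5 times. The median over the members turned to 0.24 in tumoroids under regorafenib and to 0.023 under 5-FU without F11 (range −0.97 to 0.24 and −0.49 to 0.023 over lines), with the same values when the shallow library was left out too, and from −0.52 to 0.28 in colonoids under 5-FU over lines. For the genotype difference under 5-FU it was 0.20 without F11, with or without the shallow library, and −0.50 to 0.20 over lines. For tumoroids against colonoids in vehicle it was 0.23 with edgeR, 0.21 with DESeq2 and −1.12 to 0.30 over lines. In fibroblasts at 4 µM it was −0.15 with no filter, −0.16 with the filter at 20 CP20M and −0.22 to 0.27 over lines. The cause of these changes was not tested, other than the number of members and libraries in each fit. Of the called genes named, none changed sign under any alternative. Under the block 81 of 81 kept their call, 73 of 82 under TMM scaling, 74 of 82 with edgeR, 77 of 82 with DESeq2 and 63 of 82 with no filter. Fewer did so with single lines left out. In organoids 19 of 53 (without colonoid line M40) to 46 of 53 (without colonoid line M1) kept it. In fibroblasts 8 of 29 (without M1(2)) to 29 of 29 (without M11) did. The depth of the shallow library, in which 1 read is 39.0 CP20M, limits single members there. Counting error also limits low members in other libraries. In M40 at 8 µM Hist1h2ag was at 3 CP20M, where 1 read is 2.05 CP20M. In fibroblast line M3 at 10 µM Hist2h2bb was at 23 CP20M, where 1 read is 1.73 CP20M.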

Other observations

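Hist1h4m, an H4 gene, is 1 of the 53 members tested in organoids and differed widely between lines. Its level was 6 to 40 CP20M over the 4 libraries of colonoid line M41, 5 to 38 in M40 and 7 to 19 in tumoroid line M3, against 97 to 431 in colonoid line M1, 149 to 670 in F11 and 113 to 145 in M14. As a share of the summed H4 genes this was 0.159% to 0.481%, 0.126% to 0.214% and 0.0964% to 0.199% in the first 3 lines and 1.63% to 4.38%, 1.70% to 1.94% and 1.43% to 1.83% in the other 3. The ratio between the highest and the lowest line, 24.4, was the largest of the 53 members tested in organoids, whose median ratio was 1.78. Hist1h4m is annotated with 88.1% of its 100-base stretches shared with other genes, and the lines of either genotype fall on both sides. In fibroblasts the levels were 12 to 47 CP20M in M3 and 14 to 49 in M1(2), against 80 to 153 in M3(2) and 57 to 149 in M11. The gene was singled out after its values were seen.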
